A study of Pyrus pyrifolia with 6 samples.

Results

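Of the genes that the deposited table describes as omega-hydroxypalmitate O-feruloyl transferase, 4 of 8 are described here, LOC103966555, LOC103938506, LOC103964024 and LOC103936111, out of 42933 genes listed in all. They were picked by name after earlier results of these data had placed them among the genes lower in bagged fruit skin. Their difference between bagged and untreated fruits is therefore given as a description, with no test. The samples were fruit skin of Cuiguan, a semi-russeted sand pear (Pyrus pyrifolia), in 2 groups of 3 libraries. Bagged fruits wore a single-layer white paper bag from 20 days after full bloom and a double-layer yellow-white bag from 40 days. Untreated fruits of the same orchard hung without bags, and both groups were sampled at 95 days. The labels speak of biological replicates but do not say how many fruits or trees each holds, so the spread given here is that between these libraries.

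Suberin is the polyester of cork cells, and it forms the brown russet layer where the smooth cuticle of a fruit is lost. It joins long-chain omega-hydroxy acids, dicarboxylic acids and glycerol to ferulate, a phenolic acid. Omega-hydroxypalmitate O-feruloyl transferase, an enzyme of the BAHD acyltransferase family, moves the feruloyl group from feruloyl-CoA onto the omega-hydroxyl end of fatty acids and alcohols. The Arabidopsis enzyme, known as ASFT or HHT, makes the ferulate esters of root and seed suberin, and its potato counterpart is needed for normal tuber skin.

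Library totals ran from 15764049 to 19546285 counts, and 25139 genes passed the filter on low counts, all 4 described genes among them. The first principal component, 46.8% of the variance, set bagged libraries (-50.3 to -40.1) apart from untreated ones. Untreated replicate 3 scored 23.98 on it, closer to the bagged side than the other untreated libraries (51.97 and 59.8). Of all genes tested, 426 were called lower in bagged skin, 1.69%, and 244 higher, 0.971%. At an unadjusted p below 0.05, edgeR put 7.71% lower and 8.21% higher, and DESeq2 called 2.97% lower and 3.01% higher. Defining genes of the cuticle were present. The most abundant in untreated skin was the cytochrome P450 77A3-like gene LOC103929512, a cutin hydroxylase, with means of 46.5 FPKM in bagged and 33.8 FPKM in untreated skin.

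All 4 genes were low in bagged skin and several-fold higher in untreated skin. LOC103966555 had 2.27, 3.82 and 5.72 FPKM (the authors' level scaled by gene length and library depth) in bagged replicates 1 to 3, against 33.8, 43.8 and 26.3 FPKM in untreated replicates 1 to 3. These values rest on 63, 112 and 184 reads in bagged and 983, 1447 and 718 reads in untreated libraries. The bagged libraries all lay below the lowest untreated one. The log2 fold change was -3.13 ± 0.33 (SE).

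LOC103938506 had 1.67, 2.65 and 5.33 FPKM in bagged skin, against 28.5, 33.8 and 23.03 FPKM in untreated skin. The groups did not overlap, and bagged replicate 3 was again the highest of its group. Its log2 fold change of -3.14 ± 0.37 (SE) was nearly that of LOC103966555.

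LOC103964024 had 2.37, 2.88 and 4.58 FPKM in bagged skin, against 17.4, 32.4 and 15.2 FPKM in untreated skin. Untreated replicate 2 stood well above the other untreated libraries in this gene, more than in the other 3. The log2 fold change was -2.72 ± 0.35 (SE), the smallest in size of the 4.

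LOC103936111, the least abundant, had 0.552, 1.01 and 2.36 FPKM in bagged skin, against 10.2, 12.6 and 8.84 FPKM in untreated skin. The bagged values rest on only 16, 31 and 79 reads, so counting error weighs more here than in the other genes. The groups did not overlap, and the log2 fold change was -2.996 ± 0.44 (SE). Without bagged replicate 3, which was the highest of its group, the fold change was -3.74 ± 0.30.

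**Figure D1:**
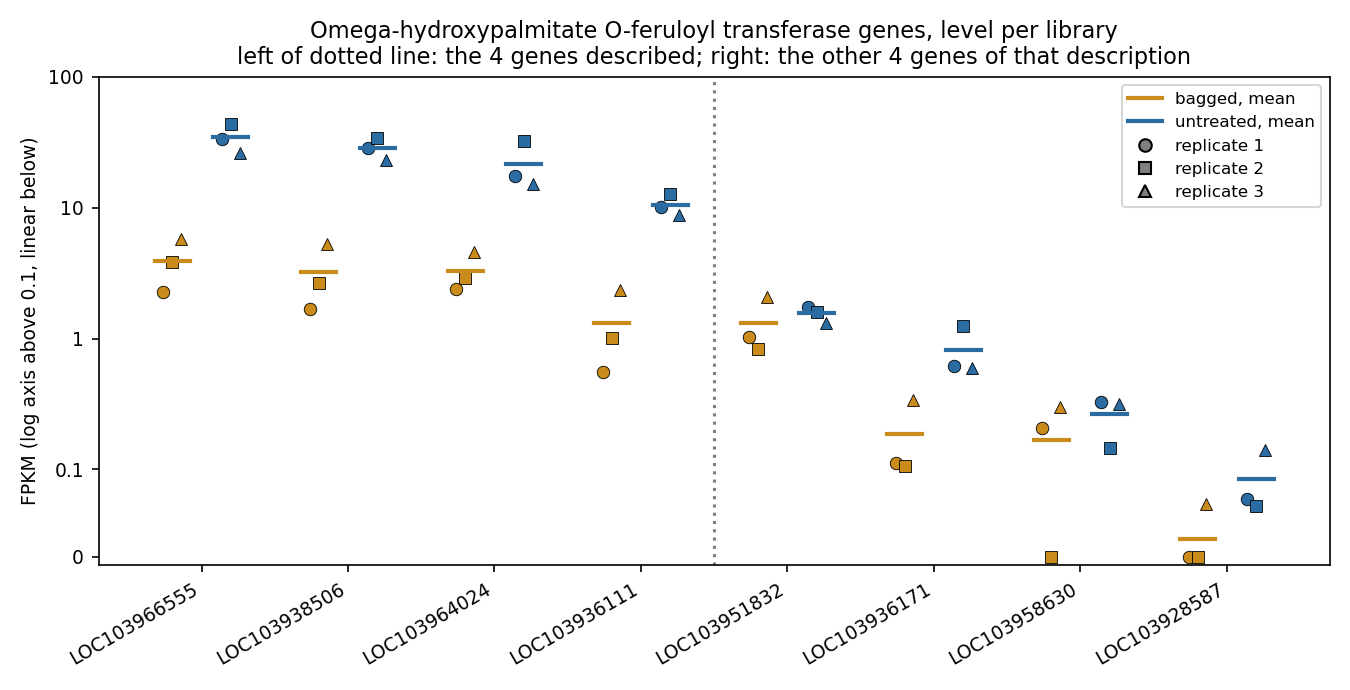
FPKM of the 8 genes with the feruloyl transferase description in each library, on an axis that is logarithmic above 0.1 and linear below; orange is bagged, blue untreated, bars are group means of 3 libraries and symbols mark replicates. In the 4 genes on the left every bagged library lies below every untreated one, and the genes on the right stay at or below 2.09 FPKM.

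The 4 fold changes spanned 0.41 on the log2 scale, about the size of 1 SE of a single gene. The genes share their libraries, so that SE does not measure a difference between genes. Such differences were not tested, and no ordering among the 4 is read. Their median was -3.06, where the median over all genes tested was -0.01. In 11% of the tested genes the bagged libraries lay below all untreated ones, as in all 4 here, and 1.48% did so with a fitted fall of at least 4-fold. Because the genes were picked on this contrast, nothing is read from that comparison. The authors' deposited table gives log2 fold changes of -3.13, -3.14, -2.72 and -3.002 for LOC103966555, LOC103938506, LOC103964024 and LOC103936111, on its own scaling. Without untreated replicate 3 the fold changes, in the same order of genes, were -3.29, -3.27, -2.92 and -3.11. In bulk skin, fewer suberizing cells and less RNA per cell cannot be told apart.

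Summed over the 4 genes, the level was 6.86, 10.4 and 17.99 FPKM in bagged replicates 1 to 3, against 89.8, 122.7 and 73.4 FPKM in untreated replicates 1 to 3. The mean sum was 11.7 ± 5.69 FPKM in bagged and 95.3 ± 25.1 FPKM in untreated skin (SD, n = 3 each). LOC103966555 gave 33.9 ± 2.63% of it in bagged and 36.4 ± 1.05% in untreated skin (SD, n = 3 each). LOC103938506 gave 26.5 ± 2.77% in bagged and 30.2 ± 2.30% in untreated skin. LOC103964024 gave 29.3 ± 4.74% in bagged and 22.2 ± 3.73% in untreated skin. LOC103936111 gave 10.3 ± 2.57% in bagged and 11.2 ± 0.883% in untreated skin. For each gene the ranges of the shares overlapped between the 2 groups. A difference in the make-up of the sum was not tested, and 3 libraries per group do not settle it.

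Levels between genes are compared per length, in FPKM. In untreated skin LOC103966555 averaged 34.6 ± 8.80, LOC103938506 28.5 ± 5.41, LOC103964024 21.7 ± 9.35 and LOC103936111 10.5 ± 1.92 FPKM (SD, n = 3 each). LOC103966555 exceeded LOC103938506 in 6 of 6 libraries, although their untreated means differed by 6.16 FPKM, less than the SD of LOC103966555. LOC103938506 exceeded LOC103964024 in 3 of 3 untreated but in 1 of 3 bagged libraries, so that pair has no fixed order. LOC103964024 exceeded LOC103936111 in 6 of 6 libraries. Set among all tested genes, LOC103966555 lay above 35.3% of them in bagged and above 84.9% in untreated skin. LOC103936111 lay above 16.5% in bagged and 57.0% in untreated skin.

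The other 4 genes of that description were scarce in both groups. LOC103951832, the only one of these above 1 FPKM on average, had 1.02, 0.84 and 2.09 FPKM in bagged and 1.75, 1.60 and 1.32 FPKM in untreated skin, with overlapping groups. Its log2 fold change was -0.24 ± 0.37 (SE) with an edgeR adjusted p of 0.815. LOC103936171 had 0.112, 0.106 and 0.34 FPKM in bagged and 0.616, 1.25 and 0.599 FPKM in untreated skin, without overlap. Its log2 fold change was -2.11 ± 0.55 (SE), which did not pass the test (edgeR adjusted p = 0.107), and DESeq2 called it lower (adjusted p = 0.0346). LOC103958630 averaged 0.169 FPKM in bagged and 0.264 FPKM in untreated skin, and LOC103928587 0.020 and 0.088 FPKM in the same order of groups. Neither reached the count filter. The 4 described genes made up 83.7% to 91.6% of the summed FPKM of all 8 in bagged libraries and 96.9% to 97.6% in untreated libraries.

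The 4 genes lie on different scaffolds, given here as in the deposited table, with no build named. LOC103966555 is on NW_008988356.1 from 41030 to 43018 (plus strand) and LOC103938506 on NW_008988981.1 from 54509 to 56830 (plus strand). LOC103964024 is on NW_008988297.1 from 106101 to 109834 and LOC103936111 on NW_008988793.1 from 126906 to 128829, both on the minus strand. All are listed as protein-coding, and no other listed gene overlaps any of them.

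The surroundings of 3 of the 4 genes had the same gene order. Read in the direction of the transferase, LOC103966555, LOC103938506 and LOC103936111 were each preceded by a 60S ribosomal protein L7a-1 gene and then an actin-related protein 2 gene, a subunit of the complex that branches actin filaments. Each was followed by a gene for a regulator of nuclear pre-mRNA (type 1B). The gap was 673 to 818 bases to the actin-related gene and 481 to 556 bases to the pre-mRNA regulator. Of 12 flanking positions, 6 to each side, LOC103966555 and LOC103936111 shared the description at 10, all in the same orientation, and at the other 2 both neighbours were uncharacterized. LOC103966555 and LOC103938506 shared it at 5 positions, and LOC103938506 and LOC103936111 also at 5.

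LOC103964024 lay in a different stretch, with a protein DEK-like gene before it. That stretch was shared with LOC103936171, the scarce gene of the same description, at 8 of 12 positions. With each of the other 3 described genes LOC103964024 shared 1 position, held by a ribosomal protein L7a-1 gene.

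**Figure D2:**
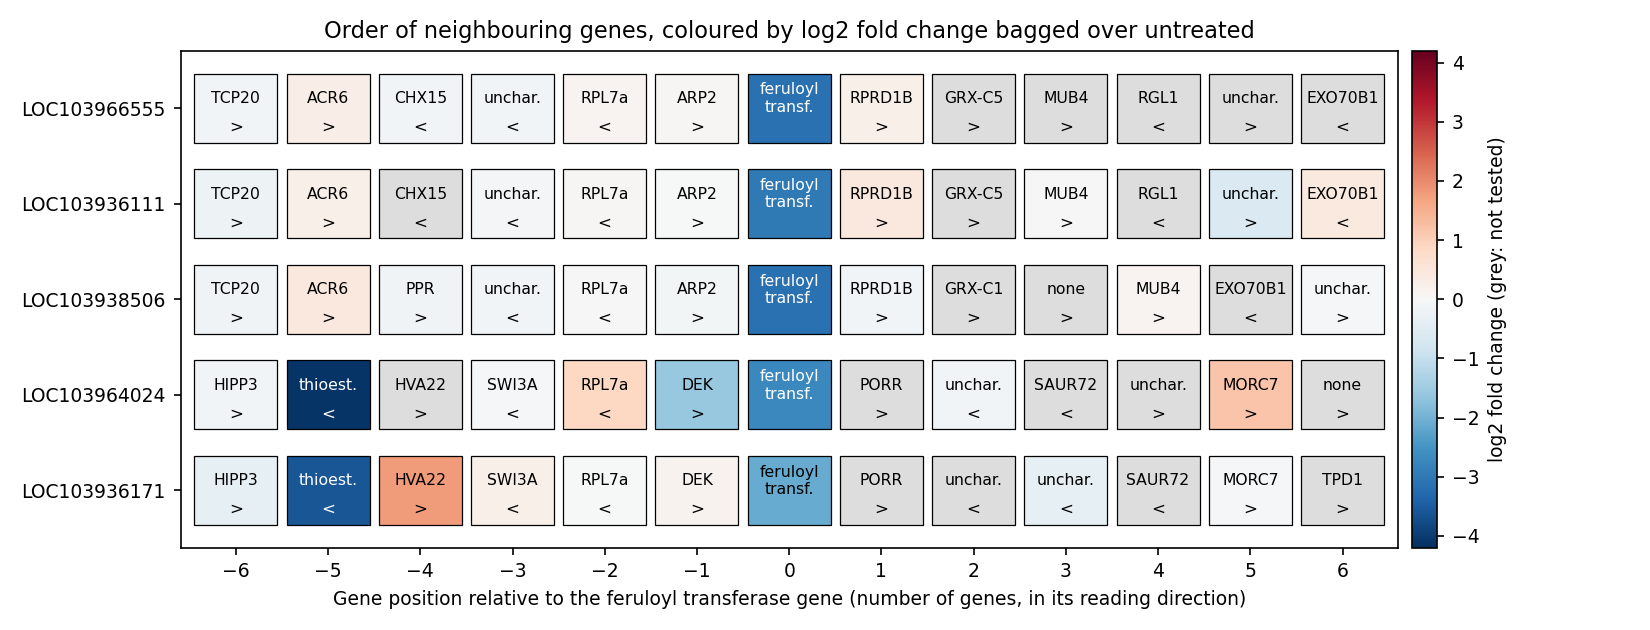
Genes at the 6 positions before and after 5 feruloyl transferase genes, in the reading direction of each (arrowheads give the neighbour's orientation), coloured by log2 fold change of bagged over untreated, grey where not tested. The upper 3 rows share their order around the transferase, and apart from the transferases the only deep blue squares are the thioesterase genes at position -5 of the lower 2 rows.

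Around LOC103966555, LOC103938506 and LOC103936111, 25 of 36 flanking genes were tested and had log2 fold changes between -0.63 and 0.44 (edgeR adjusted p from 0.138 to 0.989), none of them called. At an unadjusted p below 0.05 there was 1, which was higher, and DESeq2 called 0. The 0 edgeR calls among 25 lie near the 1.69% and 0.971% of all genes, so they are no result about the neighbours, and the unadjusted count stands beside 7.71% lower and 8.21% higher over all genes. The actin-related protein 2 genes next to these 3 transferases had log2 fold changes of 0.03, -0.12 and -0.01, and the pre-mRNA regulator genes 0.24, -0.16 and 0.43.

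Levels of the shared neighbours differed between the copies of the stretch. At the 6 positions compared (6, 5, 3, 2 and 1 before and 1 after), the gene beside LOC103938506 had the highest FPKM at 6 of 6 in bagged and 6 of 6 in untreated skin. The one beside LOC103936111 was lowest at 5 of 6 in each group. For the actin-related protein 2 genes in untreated skin, the means were 14.7 FPKM beside LOC103966555, 30.3 FPKM beside LOC103938506 and 2.04 FPKM beside LOC103936111. The transferases followed that order only in part, since LOC103966555 was above LOC103938506. The sources used here do not give how the counter treated reads that fit several of these like genes. The split of reads among the 4 is therefore uncertain, and how far their sum is affected was not tested. Whether the scaffolds with shared gene order are separate places in the genome or versions of 1 place was not settled here. The 4 are therefore counted as listed, and their number, shares and correlations carry that limit.

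Around LOC103964024, 7 of 12 flanking genes were tested and 1 was called. It is LOC103964031, a palmitoyl-acyl carrier protein thioesterase, of the enzymes that release saturated fatty acids from acyl carrier protein in the plastid. This gene was singled out after its values were seen. It lies 27807 bases from the transferase on the opposite strand and averaged 0.205 ± 0.217 FPKM in bagged and 3.74 ± 0.874 FPKM in untreated skin (SD, n = 3 each). The log2 fold change was -4.12 ± 0.60 with an edgeR adjusted p of 0.0164, and the call was lost without bagged replicate 2 or untreated replicate 1 or 2 (adjusted p from 0.050 to 0.0666). Its counterpart beside LOC103936171, LOC103936166, fell by 3.59 ± 0.50 on the log2 scale (edgeR adjusted p = 0.0144), a call lost without bagged replicate 1 or 2 (0.0683 and 0.0522). Both genes are scarce, with 373 and 163 reads over all libraries.

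Within each group the 4 genes ranked the libraries alike. The choice of genes did not use this ranking directly, but it took genes lower in bagged skin. The ranking was more frequent among genes called lower (19.5%) than among all tested (2.26%). In all 4, bagged replicate 3 was the highest and bagged replicate 1 the lowest of the bagged libraries, and untreated replicate 2 was the highest and untreated replicate 3 the lowest of the untreated ones. On the log2 CPM scale, bagged replicate 3 stood above its group mean by 0.63 for LOC103966555, 0.88 for LOC103938506, 0.53 for LOC103964024 and 1.05 for LOC103936111. Untreated replicate 2 stood above its group mean by 0.37, 0.26, 0.66 and 0.27 in the same order of genes. Across the 6 deviations from the group means, Pearson's r between pairs of the genes ran from 0.80 (LOC103964024 with LOC103936111) to 0.996 (LOC103938506 with LOC103936111), and the points share their libraries and, in part, perhaps reads.

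**Figure D3:**
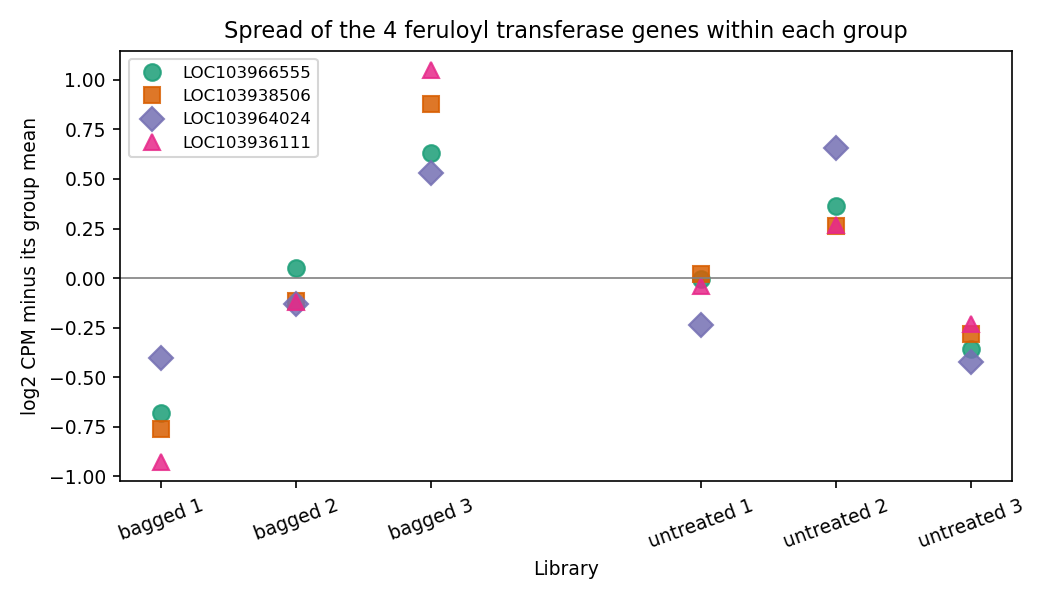
Deviation of log2 CPM from the group mean for each of the 4 genes in each of the 6 libraries; symbols and colours mark the genes. Bagged replicate 3 and untreated replicate 2 lie above 0 for every gene, and bagged replicate 1 and untreated replicate 3 below.

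The same ranking of libraries in both groups was seen in 2.26% of all genes tested, and in 83 of the 426 genes called lower, 19.5%. Among the suberin genes fixed as lists it was seen in 4 of 12 genes of chain and glyceride synthesis, 4 of 5 half-size transporters and 2 of 7 MYB factors. The summed level of the cuticle marker list was also highest in bagged replicate 3, at 322 FPKM, and its part in the order of libraries was not tested.

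By likeness over the 6 libraries, the 10 genes closest to the 4 included 4 with known parts in suberin. The MYB39-like gene LOC103960041, of a subgroup of transcription factors known in Arabidopsis to drive suberin synthesis, had the highest mean Pearson correlation, 0.996. It averaged 0.475 FPKM in bagged and 6.34 FPKM in untreated skin. The ABC transporter G family member 20-like gene LOC103933813, of the half-size transporters tied to suberin export, followed with 0.995. The glycerol-3-phosphate acyltransferase 5-like gene LOC103942961, which attaches suberin acids to glycerol, also had 0.995, and the cytochrome P450 86B1-like gene LOC103943216, a hydroxylase of very long chains, had 0.994.

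The other 6 were LOC108866012 (vegetative cell wall protein gp1-like), LOC103929739 (cytochrome P450 CYP736A12-like), LOC103967124 (a phosphatidylinositol transfer protein, SFH3-like), LOC103948870 (epoxide hydrolase 4-like), LOC108865363 (germin-like protein) and the uncharacterized LOC103956874. The correlation ignores the size of a change. LOC103956874 had a mean correlation of 0.994 with a log2 fold change of only -0.22, whereas the other 9 of the 10 had fold changes from -3.70 to -2.79. These correlations were computed over 6 libraries that fall into 2 groups, so the group difference carries most of them.

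Taken singly, LOC103966555 was closest to the cytochrome P450 86A1 gene LOC103963213, the omega-hydroxylase that makes the acceptor of the feruloyl group (r = 0.9996), and to the multicopper oxidase gene LOC103958657 (r = 0.999). LOC103938506 and LOC103936111 were both closest to LOC103965196, a GDSL esterase/lipase At2g23540-like gene (r = 0.999 for each). The second closest was the dirigent protein 23-like gene LOC103938359 for LOC103938506 and the GDSL esterase/lipase At5g37690-like gene LOC103959949 for LOC103936111. LOC103964024 was closest to an assembled locus without a gene name that has a short chain dehydrogenase domain, and to the purple acid phosphatase 22-like gene LOC103963631 (r = 0.999 and 0.998).

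Genes listed by description as partners in suberin synthesis, with the 4 left out, were mostly lower in bagged skin, as earlier results had shown. A description does not settle that each listed gene acts in suberin, and this holds for the MYB36-like gene and the fatty acyl-CoA reductases. Of 12 genes tested for chains and glycerides, 5 fell, 1 rose and 6 did not pass, where 1.69% of all genes fell and 0.971% rose. The cytochrome P450 86A1 gene LOC103963213 fell by 3.24 ± 0.31 on the log2 scale and the cytochrome P450 86B1-like gene LOC103943216 by 3.14 ± 0.40 (edgeR adjusted p = 0.006 and 0.0115). Among acyltransferases for glycerol, LOC103942961 (-2.81 ± 0.35) and LOC103935642 (-2.80 ± 0.37), both described as glycerol-3-phosphate acyltransferase 5-like, fell alike. Outside the naming rule, the other gene that fell was LOC103931004, fatty acyl-CoA reductase 3-like (-2.26 ± 0.20), and the one that rose was LOC103954216, also a fatty acyl-CoA reductase (0.93 ± 0.14). Of 5 transporters tested, 4 fell and none rose (5 lower and 0 higher at an unadjusted edgeR p below 0.05, which 7.71% and 8.21% of all genes were, and likewise by DESeq2, with 2.97% and 3.01%). The ABC transporter G family member 20-like genes LOC103932967 and LOC103933813 fell (log2 fold changes -3.25 and -3.17), as did the member 6-like genes LOC103936749 and LOC103928588 (-2.78 and -2.61). Of 7 MYB factors tested, 4 fell and none rose, namely the MYB39-like genes LOC103960041, LOC103939715 and LOC103930480 (-3.70, -3.64 and -3.13) and the MYB36-like gene LOC103951652 (-2.68). Among these factors 7 were lower and 0 higher at an unadjusted edgeR p below 0.05, and DESeq2 called 5 lower and 0 higher, against the same shares of all genes.

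Over every tested gene of each list, called or not, the log2 fold changes ran from -3.91 to 0.93 in the chain and glyceride list (median -2.12, 8 of 12 below 0), from -3.25 to -1.66 in the transporter list (median -2.78) and from -3.70 to -0.49 in the MYB list (median -2.68). The MYB count was 2 without bagged replicate 1 and 1 without bagged replicate 2. The chain and glyceride count was 3 without bagged replicate 2. Over all genes, 135 and 160 were called lower without bagged replicates 1 and 2, against 426 with all libraries. LOC103954216 lost its call without bagged replicate 2 or untreated replicate 1 or 2. Of the named genes, LOC103928588 and LOC103930480 lost their calls without bagged replicate 1 or 2 or untreated replicate 1 or 2 (adjusted p up to 0.133 and 0.0931). LOC103935642 and LOC103951652 lost theirs without bagged replicate 1 or 2 (0.0507 to 0.0656), and LOC103942961 and LOC103960041 theirs without bagged replicate 2 (0.0516 each).

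Genes of the donor side of the reaction went different ways by step. Feruloyl-CoA is built from phenylalanine through cinnamate, coumaroyl and caffeoyl intermediates and gains its methyl group in the last steps. Of 54 genes tested over these steps, 11 fell, 2 rose and 41 did not pass, where 1.69% of all genes fell and 0.971% rose. The median log2 fold change over the 54 was -0.24. The most abundant gene of each step is named beside those of the naming rule, chosen after its values were seen, as are the others called in a step of few. At the entry, the phenylalanine ammonia-lyase 1 gene LOC103934948, of the enzyme that opens the pathway, averaged 49.1 FPKM in bagged and 22.5 FPKM in untreated skin. It rose by 1.12 ± 0.19 (edgeR adjusted p = 0.0293), a call lost without bagged replicate 1 or 3 or untreated replicate 1 or 2 (0.0699 to 0.103). The more abundant cinnamate hydroxylase gene, LOC103945990, averaged 198 FPKM in bagged and 207 FPKM in untreated skin. None of 3 such genes passed the edgeR test. At an unadjusted edgeR p below 0.05, 1 was lower, against 7.71% of all genes, and DESeq2 called 1 lower, against 2.97%.

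Genes for the methyl transfer were among those that fell, as 1.69% of all genes did. LOC103933993, a caffeoyl-CoA O-methyltransferase-like gene whose enzyme turns caffeoyl-CoA into feruloyl-CoA, averaged 4.85 FPKM in bagged and 39.2 FPKM in untreated skin, a log2 fold change of -3.02 ± 0.25 (edgeR adjusted p = 0.0058). It was the 1 gene of 3 for that enzyme that passed the count filter, and the summed FPKM of the 3 was 5.03 in bagged and 40.5 in untreated skin. Of 6 caffeic acid 3-O-methyltransferase genes tested 2 fell, LOC103951572 by 3.11 ± 0.32 on the log2 scale at a low level (0.26 FPKM in bagged and 2.29 FPKM in untreated skin) and LOC103943352, the most abundant, by 1.05 ± 0.13 (38.6 FPKM in bagged and 79.7 FPKM in untreated skin). Of 5 genes tested for 4-coumarate-CoA ligase, which makes the CoA esters, 3 fell, LOC103939486 (-1.71 ± 0.18), 4CL (-1.02 ± 0.12) and LOC103943288 (-0.98 ± 0.14). The summed level of the 6 listed was 24.96 FPKM in bagged and 50.9 FPKM in untreated skin. The ligase-like genes of the same pattern, 9 of them tested, held no edgeR call. At an unadjusted edgeR p below 0.05, 2 were lower and 1 higher, against 7.71% and 8.21% of all genes. DESeq2 called 1 higher, against 3.01%.

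The remaining steps held 1 to 3 calls each, where 1.69% of all genes fell and 0.971% rose. A scarce shikimate O-hydroxycinnamoyltransferase-like gene, LOC103964288, fell by 3.05 ± 0.58 on the log2 scale, while the most abundant gene of that enzyme, LOC103945376, averaged 102 FPKM in bagged and 69.96 FPKM in untreated skin and did not pass (edgeR adjusted p = 0.108). Of 4 genes for aldehyde dehydrogenase family 2 member C4, which in Arabidopsis oxidizes coniferaldehyde to ferulate, LOC103929434 fell by 2.53 ± 0.35 and the most abundant, LOC103929436, did not pass (39.6 FPKM in bagged and 36.04 FPKM in untreated skin). Of 13 caffeoylshikimate esterase genes tested, LOC103928423 and LOC103928574 fell (-2.34 ± 0.29 and -1.77 ± 0.31) and LOC103937186 rose (1.91 ± 0.25). Of 5 genes for cytochrome P450 98A2, the hydroxylase of coumaroyl esters, LOC103944996 fell (-1.23 ± 0.16).

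Leaving out bagged replicate 1 or 2, 7 donor genes fell, where 135 and 160 of all genes did. Without bagged replicate 1 or 3 or untreated replicate 1 or 2, 1 donor gene rose, where 70 to 109 of all genes did. LOC103964288 lost its call without bagged replicate 1 or 2 or untreated replicate 1 or 2 (adjusted p from 0.051 to 0.126 over all settings where it was lost), and LOC103929434 without bagged replicate 2 (0.0516). LOC103943288 and LOC103944996 lost theirs without bagged replicate 1 and without 1 or 2 others (0.0507 to 0.0607), and LOC103928574 without any library but untreated replicate 3 (0.0501 to 0.114 over all settings where it was lost).

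**Figure D4:**
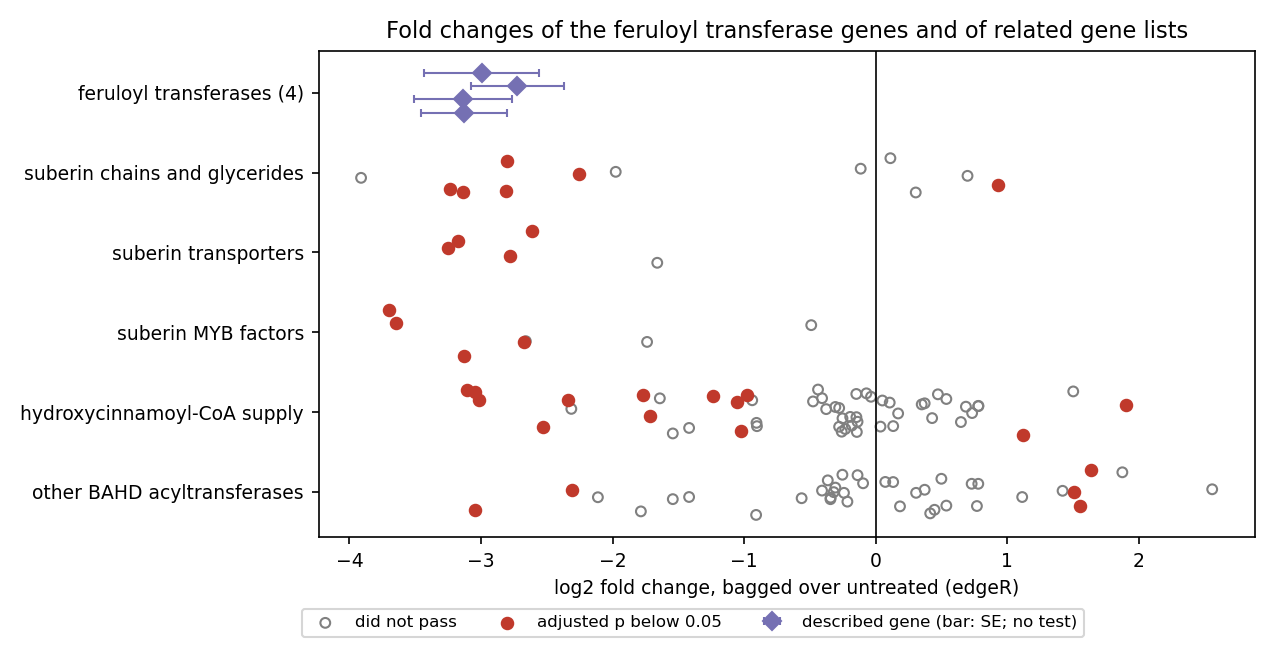
Log2 fold changes (bagged over untreated, edgeR) of the 4 feruloyl transferase genes with their SE as bars, and of the tested genes of 5 lists; filled red points passed an adjusted p of 0.05 and open points did not, with vertical scatter for legibility. The transferases lie between -3.14 and -2.72 beside the suberin lists, while donor supply and other BAHD genes are centred near -0.24 and -0.01.

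The list of other acyltransferases of the BAHD family, to which the feruloyl transferases belong, leaves out the 4 described genes. It holds the other 4 genes of that description, 2 of them tested. It also holds 9 shikimate O-hydroxycinnamoyltransferase genes, 6 of them tested, which the donor list counts too. LOC103964288 is therefore a fall in both lists. Of 38 tested, 2 fell, 3 rose and 33 did not pass, where 1.69% of all genes fell and 0.971% rose. So few calls are not read as a result about the family. The median over the 38 was -0.01 on the log2 scale. The 2 that fell were scarce, LOC103964288 and the At3g50280-like acetyltransferase gene LOC103950398 (-2.31 ± 0.39). The 3 that rose were the vinorine synthase-like genes LOC103951985 (1.64 ± 0.23) and LOC103934740 (1.55 ± 0.19), of no known role in pear, and LOC103932242 (1.51 ± 0.25), chosen after its values were seen. DCR is needed for cutin in Arabidopsis, and LOC103932242 is described as DCR-like, which does not settle a role in the pear cuticle. Of 3 genes tested with a DCR description, LOC103932242 was the 1 called. It averaged 78.3 FPKM in bagged and 27.5 FPKM in untreated skin. Without bagged replicate 2 or untreated replicate 1, 1 BAHD gene rose, where 88 and 80 of all genes did. None fell without bagged replicate 1 or 2 or untreated replicate 1 or 2, where 135 to 226 of all genes did. LOC103950398 lost its call without any of these 4 libraries (adjusted p up to 0.102). LOC103951985 lost its call without bagged replicate 2 or untreated replicate 1 (0.0518 and 0.0525), and LOC103932242 without bagged replicate 2 or 3 or untreated replicate 1 or 2 (up to 0.0791).

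Markers of other cell layers in a peel are given beside these values. The 34 cuticle genes listed summed to 232 to 322 FPKM in bagged and 152 to 173 FPKM in untreated libraries, and 4 of them had no read in any library. Of 19 tested, 4 rose, namely the cytochrome P450 86A22 gene LOC103963865, HOTHEAD (LOC103966469) and the 3-ketoacyl-CoA synthase 6 genes LOC103947136 and LOC103947140, and 1 fell, the ABC transporter G family member 32-like gene LOC103962994. Those 4 rising calls were each lost without at least 4 of the 6 libraries in turn. Over all genes tested, 0.971% were called higher and 1.69% lower. The 27 genes of secondary walls, as in xylem and stone cells, summed to 121 to 128 FPKM in bagged and 105 to 121 FPKM in untreated libraries, with NAC43-like LOC103956366 and 2 fasciclin-like genes at 0 reads. None of 10 tested was called by edgeR or DESeq2, with 1 lower and 1 higher at an unadjusted edgeR p below 0.05 (7.71% and 8.21% of all genes). The most abundant were the xylosyltransferase genes LOC103962640 (IRX10L, 34.8 FPKM in bagged and 28.4 FPKM in untreated skin) and LOC103957108 (IRX14, 27.6 FPKM in bagged and 25.6 FPKM in untreated skin), of enzymes that build xylan.

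The 15 phloem genes summed to 37.8 to 42.5 FPKM in bagged and 32.8 to 63.3 FPKM in untreated libraries, with 2 phloem protein 2-like A9 genes at 0 reads. None of 8 tested was called by edgeR, with 1 lower and 1 higher at an unadjusted p below 0.05 (7.71% and 8.21% of all genes). DESeq2 called 1 lower (2.97% of all genes). The most abundant in bagged skin were LOC103946488 (phloem protein 2-like A1, 17.3 FPKM in bagged and 14.1 FPKM in untreated skin) and LOC103951373 (phloem protein 2-like A10, 12.3 FPKM in bagged and 9.45 FPKM in untreated skin). The gene that DESeq2 called, LOC103938158 (sieve element occlusion B-like), chosen after its values were seen, had 1.83, 0.797 and 0.924 FPKM in bagged replicates 1 to 3, against 28.8, 1.54 and 11.5 FPKM in untreated replicates 1 to 3. Its untreated level was lowest in replicate 2, where the 4 transferases were highest. The part of these other cell layers in the levels of the transferases was not tested.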

How the data were processed

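RNA-seq libraries of fruit skin were compared, 3 from bagged and 3 from untreated fruits. Per the labels' protocols, CTAB was used to extract RNA, and an NEBNext Ultra kit to build the libraries. Per the submitters' processing notes, reads were aligned with HISAT2. Not given in the sources used here are the counter, its strand setting, its treatment of reads that map to several places, the annotation and the genome build. The deposited table holds raw counts and the authors' FPKM per gene and library, per the file headers. It also holds the authors' log2 fold change, of which 1 value per described gene is printed, and their p-value and group-mean signal, neither of which is used here. Gene length, a score in bases, was deposited with the table and is used only through the FPKM. Escaped commas in the gene descriptions were decoded, and no deposited column lacked a sample or comparison.

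Counts were tested in edgeR 4.0.16 (R 4.3.3). Genes passed filterByExpr (minimum count 10, minimum total 15), libraries were scaled by TMM, and bagged was compared with untreated skin in the quasi-likelihood test without covariates. A gene was called at a Benjamini-Hochberg adjusted p below 0.05 over all genes tested. SE is the log2 fold change over the root of F. CPM uses TMM-scaled totals, and correlations use log2 CPM with a prior count of 2. The test was checked on simulated counts. The median SE over all genes tested was 0.17.

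The 4 genes and the lists were chosen with earlier results of these data known. Lists are text patterns on the descriptions. From each, up to 4 called genes with the largest absolute log2 fold change are named, or the 2 of highest FPKM where none was called. Likeness names the 10 genes that have a description, reach 2 in average log2 CPM and have the highest mean correlation with the 4 genes, and the 2 highest for each gene. Other names are said to be chosen after their values were seen. Alternatives were 3 other scalings, 2 other filters, DESeq2 1.42.0, limma-voom (limma 3.58.1), limma on FPKM as log2(FPKM + 1) or log2(FPKM + 0.1) where 3 libraries reached an FPKM of 1, the replicate number as a block, and each library left out.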

Additional observations from a re-analysis of the deposited data

How the results depend on the processing

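The fold changes of the 4 feruloyl transferase genes stayed negative under all 16 alternatives. They ran from -3.51 to -2.86 for LOC103966555, -3.72 to -2.83 for LOC103938506, -3.05 to -2.32 for LOC103964024 and -3.74 to -2.39 for LOC103936111. With 1 library left out, LOC103936111 ran from -3.74 to -2.64. Same-numbered deviations from the group means correlated at -0.04, 0.08 and 0.06, and differently numbered ones at -0.13 to 0.08. With 3 libraries per group, these values cannot settle whether the replicate numbers pair the libraries. Under a block for replicate number the fold changes were -3.17, -3.24, -2.69 and -3.14, in the order above. With that block 728 genes were called, 370 lower and 358 higher, 4 donor genes rose and no other BAHD gene fell.

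DESeq2 called 1501 genes, 745 lower and 756 higher, and limma on log2(FPKM + 0.1) called 422, with 102 higher. Under DESeq2, 2 of the 12 chain and glyceride genes, 7 of the 54 donor genes and 6 of the 38 other BAHD genes rose. Over all genes, 3.01% did. Under limma on log2(FPKM + 0.1), 0 chain and glyceride genes and 1 donor gene rose, and 1 other BAHD gene fell. With 1 library left out, 205 to 692 genes were called, 135 to 386 lower and 70 to 306 higher. The genes that fell then numbered 3 to 6 for chains and glycerides, 1 to 4 for MYB factors, 7 to 12 for the donor and 0 to 2 for other BAHD genes. Those that rose numbered 0 to 1, 0, 1 to 3 and 1 to 4 in the same order of lists. The cause of these shifts was not tested. Depth limits LOC103936111 in bagged skin most, with 16 reads in 1 library.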
